A study of Mus musculus with 8 samples.

Results

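The 45 genes described here are transcripts of DNA replication and cell division, taken by symbol from the 24421 genes of the count table. All 45 were found, 13 of them replication genes, 25 mitotic genes and 7 regulators or markers of cycling cells. The rule that picked them used only their names, but the list of names was drawn up with earlier results of these data known. RNA came from T cells carrying CD4 that were sorted from knee joints after enzymatic digestion, and every mouse was a male of 16 weeks with arthritis induced by an antigen. The groups were 4 wild-type libraries and 4 libraries from cells with a knockout of Slc7a5. The labels used here do not state how the gene was deleted, in which cells, or whether each library stood for its own mouse. Each p-value below is therefore set against a spread between libraries that may be partly technical.

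A dividing cell copies its DNA in S phase and separates the copies in mitosis, the M phase. Replication genes are switched on late in G1 by E2F transcription factors. Many mitotic genes are switched on later, by the MuvB core of the DREAM complex after it exchanges its partners for B-Myb and Foxm1. MuvB binds a promoter element named CHR. T cells that meet antigen divide quickly, and activated T cells use the transporter encoded by Slc7a5 to take up the large neutral amino acids that growth requires.

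The promoters of replication and mitotic members differed in these elements, and 4 of them are shown because they hold the E2F or CHR letters. Windows from 250 bases before to 50 bases after the start site were taken from RefSeq on GRCm38.p6, which shares its coordinates with mm10, and 37 of the 45 members had one. The E2F letters searched on both strands were TTTGGCGC, TTTCCCGC, TTTGCCGC and TTTCGCGC, the CHR letters TTTGAA and TTCGAA, and the third element CCAAT. The 13 windows of replication members came from 12 genes, since Mcm7 had an additional window. An E2F match was present in 5 of 13 windows of replication members (38.46%), in 4 of 21 windows of mitotic members (19.05%) and in 2.26% of all 32851 windows. A CHR match was present in 3 of 13 windows (23.08%), 17 of 21 windows (80.95%) and 19.23% of all windows. Restricted to the 50 bases on either side of the start site, CHR matches were left in 1 replication window (7.69%), in 17 mitotic windows (80.95%) and in 5.31% of all windows. CCAAT was found in 76.92% of replication, 80.95% of mitotic and 37.41% of all windows. These matches describe letters only and do not show that a factor was bound.

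The windows of Mcm6 (chr1:128359656-128359955, minus strand) and Mcm3 (chr1:20820263-20820562, minus strand), which encode subunits of the replicative helicase, have their E2F letters in capitals. Top2a (chr11:99024140-99024439, minus strand), a topoisomerase that untangles sister chromosomes, and Kif11 (chr19:37376132-37376431, plus strand), the motor that pushes spindle poles apart, have their CHR letters in capitals. Each is written 5′ to 3′ along its gene.
Mcm6: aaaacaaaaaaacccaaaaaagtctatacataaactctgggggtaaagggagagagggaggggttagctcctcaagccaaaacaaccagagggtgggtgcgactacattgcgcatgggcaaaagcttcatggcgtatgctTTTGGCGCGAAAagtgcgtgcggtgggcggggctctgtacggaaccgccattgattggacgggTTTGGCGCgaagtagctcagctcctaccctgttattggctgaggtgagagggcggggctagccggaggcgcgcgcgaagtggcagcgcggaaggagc
Mcm3: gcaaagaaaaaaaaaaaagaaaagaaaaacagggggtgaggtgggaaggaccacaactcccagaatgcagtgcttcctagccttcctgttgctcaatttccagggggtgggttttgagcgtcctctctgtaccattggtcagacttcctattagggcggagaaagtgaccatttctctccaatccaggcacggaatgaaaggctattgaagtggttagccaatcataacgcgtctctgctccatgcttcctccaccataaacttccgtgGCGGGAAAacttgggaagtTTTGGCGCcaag
Top2a: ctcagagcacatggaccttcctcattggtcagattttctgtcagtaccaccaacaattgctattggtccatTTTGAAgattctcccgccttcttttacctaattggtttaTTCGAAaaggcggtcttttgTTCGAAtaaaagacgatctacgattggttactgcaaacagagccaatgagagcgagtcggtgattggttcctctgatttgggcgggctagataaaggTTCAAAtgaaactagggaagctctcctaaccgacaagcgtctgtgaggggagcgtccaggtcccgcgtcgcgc
Kif11: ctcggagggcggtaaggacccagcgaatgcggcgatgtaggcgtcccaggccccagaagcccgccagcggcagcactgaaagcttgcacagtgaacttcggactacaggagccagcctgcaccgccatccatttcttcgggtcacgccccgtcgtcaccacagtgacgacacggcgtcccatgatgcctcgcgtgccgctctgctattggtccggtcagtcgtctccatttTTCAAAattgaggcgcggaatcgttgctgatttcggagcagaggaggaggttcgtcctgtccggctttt
In Mcm6 the first capital run joins overlapping matches on opposite strands, TTTGGCGC at position -110 and TTTCGCGC at -106 from the start site, and another TTTGGCGC stands at -47. Mcm3 held its matches after the start site, at 20 and 39. Top2a held 4 separate CHR matches, the nearest at -23, and Kif11 held 1 at -19.

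The libraries differed in how many genes they caught, which touches all members. Totals ran from 21873678 to 36436923 counts in wild type and from 18837650 to 25853856 in knockout. Genes with at least 1 count numbered 7957 to 10139 in wild type and 5221 to 9358 in knockout, lowest in knockout replicate 4. That library also stood apart in rank correlation across genes (0.489 to 0.544 with the others, against 0.578 to 0.826 among the remaining 7). For the targeted gene Slc7a5, wild-type replicates 1 to 4 held 385, 194, 410 and 0 counts and each knockout library 0 (pooled over libraries at least 239-fold lower against a floor of 3 counts, which covers counting error only). Wild-type replicate 4 is thus not checked by it, and the zeros alone do not check the labels.

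All 11 T cell markers in the file had counts in every library and summed to 9481 to 12824 CPM (counts per 1000000 counts of effective library size, after TMM scaling) in wild type and 7633 to 9522 CPM in knockout. Cd4 itself was at 373 to 570 CPM in wild type, at 344 to 427 CPM in knockout replicates 1 to 3 and at 1.78 CPM in knockout replicate 4. Cd8b1, a chain of the CD8 co-receptor, was at 123 CPM in knockout replicate 4 and at 0 to 20.3 CPM in the other 7 libraries. In both genes knockout replicate 4 goes against its label, although the remaining T cell markers were present. Cd8a was at 0 there, and of 6 markers of CD8 and natural killer cells 0 to 3 had a count in any library. Antigen-presenting cell and myeloid markers summed to 1243 to 3027 CPM in wild type and to 8688, 9939, 1953 and 10891 CPM in knockout replicates 1 to 4. Of these 14 markers, 8 to 10 had a count in the wild-type libraries and 5 to 10 in the knockout libraries. H2-Ab1, H2-Aa, H2-Eb1 and Cd74, of MHC class II presentation, carried most of the sum. The other markers did not share one direction. Csf1r, which marks macrophages, was at 0 in all wild-type libraries and at 0, 44.3, 21.9 and 0.0522 CPM in knockout. Lyz2, a lysozyme of myeloid cells, was at 22 to 25.7 CPM in wild type against 0, 0, 25.5 and 0.366 CPM in knockout. Cd14 was at 9.01 to 40.1 CPM and at 0, 0, 22.2 and 0.209 CPM. Itgam and Itgax had counts in wild type only, C1qb reached 20.5 CPM in wild type but at most 0.157 CPM in knockout, and Adgre1 was at 0 in all 8. Of the B and plasma cell markers, Ms4a1, Pax5 and Jchain were at 0 in all 8 libraries. Cd79b was at 0 to 8.12 CPM in wild type against 0, 35.2, 30.6 and 0 CPM in knockout, and Cd79a reached 8.96 CPM in knockout replicate 3 and was at 0 in wild type. Xbp1, which T cells also express, was at 222 to 406 CPM in 7 libraries and at 0.157 CPM in knockout replicate 4. In bulk RNA, fewer cells of a type and less RNA per cell cannot be told apart, and the part of other cells in the values below was not tested.

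Replication and mitotic members took similar shares of the counts in every library, and neither sum separated the genotypes. The 13 replication members summed to 1363, 2584, 2889 and 2512 CPM in wild-type replicates 1 to 4 and to 1793, 1781, 1922 and 2049 CPM in knockout replicates 1 to 4. The 25 mitotic members summed to 1340, 2754, 2804 and 1978 CPM in wild type and to 1946, 1510, 2009 and 1881 CPM in knockout. Wild-type replicate 1, the deepest library and the one with the most genes, had the lowest sum of both kinds. The other 3 wild-type libraries lay above all knockout libraries for replication members, and wild-type replicates 2 and 3 did so for mitotic members. The knockout mean was 80.7% of the wild-type mean for replication members (2337 ± 670 and 1886 ± 126 CPM, SD, n = 4 each) and 82.8% for mitotic members (2219 ± 697 and 1836 ± 224 CPM). Both groups overlapped between genotypes.

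The balance between the S phase and M phase programs did not separate the genotypes either. Replication over mitotic summed CPM was 1.02, 0.938, 1.03 and 1.27 in wild type and 0.922, 1.18, 0.956 and 1.09 in knockout, a mean of 1.06 ± 0.143 against 1.04 ± 0.12. On the log2 scale the ratio was 0.04 lower in knockout, less than the pooled SD of 0.18 between libraries. Without knockout replicate 4 the log2 ratios of the genotype means were -0.36 for the replication and -0.30 for the mitotic sum, beside -0.31 and -0.27 with it. No p is given for sums over the members.

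**Figure D1:**
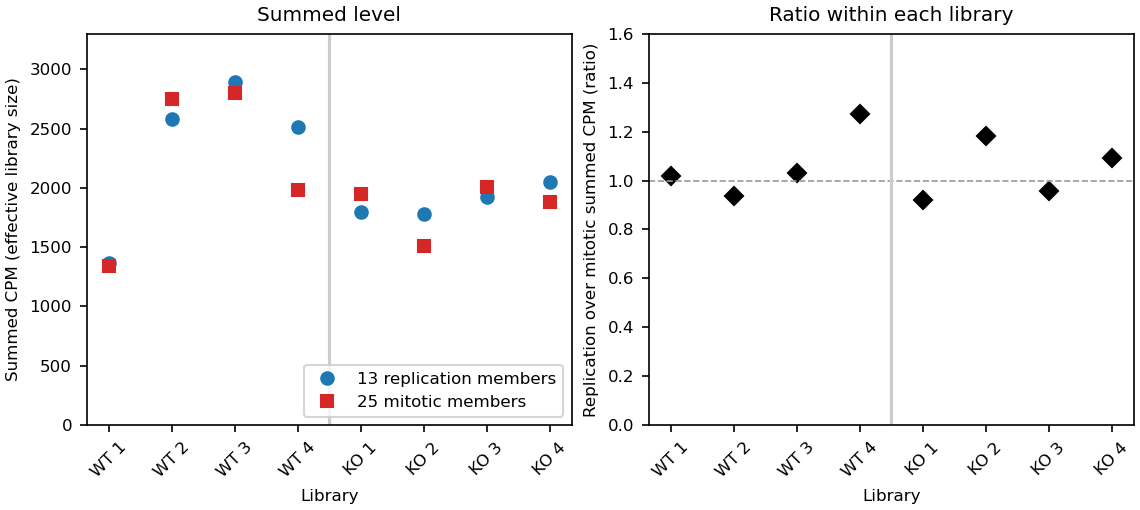
Summed CPM of the 13 replication and 25 mitotic members in each library (left) and their ratio within the library (right), WT wild type and KO Slc7a5 knockout. Each point is 1 library: the sums run from 1340 to 2889 CPM in wild type and from 1510 to 2049 CPM in knockout, and the ratio stays between 0.922 and 1.27 in all 8.

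No member passed the test. With the quasi-likelihood F test of edgeR, adjusted by Benjamini and Hochberg's method, 0 of 44 tested members and 0 of 8489 genes had an adjusted p under 0.05 (0%). The other tools called 387 genes and 1 member (DESeq2), 9 genes and 0 members (limma voom) and 4 genes and 0 members (limma voom with quality weights). At an unadjusted p under 0.05 there were 0 members, where 1.97% of all tested genes were lower and 1.87% higher at that level. Likewise 0 of 44 members had groups that did not overlap, against 4.62% of tested genes with every knockout library below and 1.52% with every knockout library above. The edgeR adjusted p of each tested member was 0.9999.

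More estimates were lower than higher in knockout, although none passed. Of the 44 tested members 35 (79.5%) had a lower estimate in knockout, against 55% of all tested genes, and the median log2 fold change was -0.33 against -0.12. The median was -0.26 for the 13 replication members (10 lower, 3 higher), -0.37 for the 25 mitotic members (21 lower, 4 higher) and -0.59 for the 6 tested regulators and markers (4 lower, 2 higher). The members share the same libraries and many share the same regulators, so their directions are not separate observations. Without knockout replicate 4 the split was 28 lower and 16 higher, beside 53.5% of all genes lower. The medians were then 0.02 for replication and -0.59 for mitotic members, and -0.41 for all members against -0.08 for all genes. With an offset for the GC content of transcripts the split was 24 lower and 20 higher, with medians of 0.08 for replication and -0.62 for mitotic members. Under that offset 44.9% of all genes had a lower estimate and their median was 0.16.

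**Figure D2:**
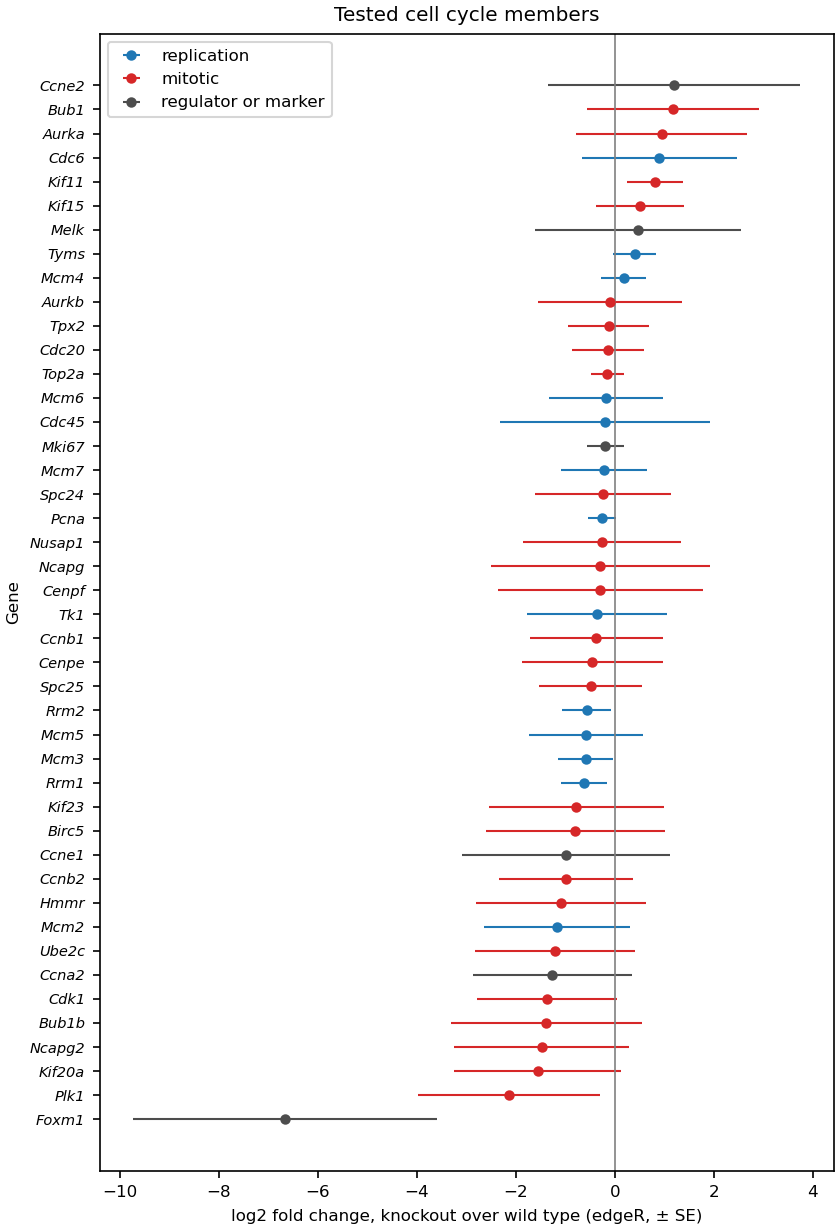
Log2 fold change of knockout over wild type for the 44 tested members (points), with the standard error from edgeR (bars), coloured by role. Standard errors run from 0.294 to 3.07, and 0 of the 44 members passed.

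Standard errors were wider for tested members with fewer than 10 counts in some library. Every member had counts in at least 5 libraries, and 19 of 45 had counts in all 8, among them 9 of 13 replication and 9 of 25 mitotic members. Each wild-type library had a count for 43 to 45 members, while knockout replicates 1 to 4 had one for 43, 38, 43 and 24. Knockout replicate 4 lacked 3 replication, 13 mitotic and 5 other members, so 46.7% of the members were at 0 there, beside 43.7% of all tested genes. In knockout replicate 2 the shares were 15.6% and 19.3%. The standard errors of the 14 tested members with at least 10 counts in every library ran from 0.294 to 1.04, and those of the other 30 from 1.15 to 3.07.

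**Figure D3:**
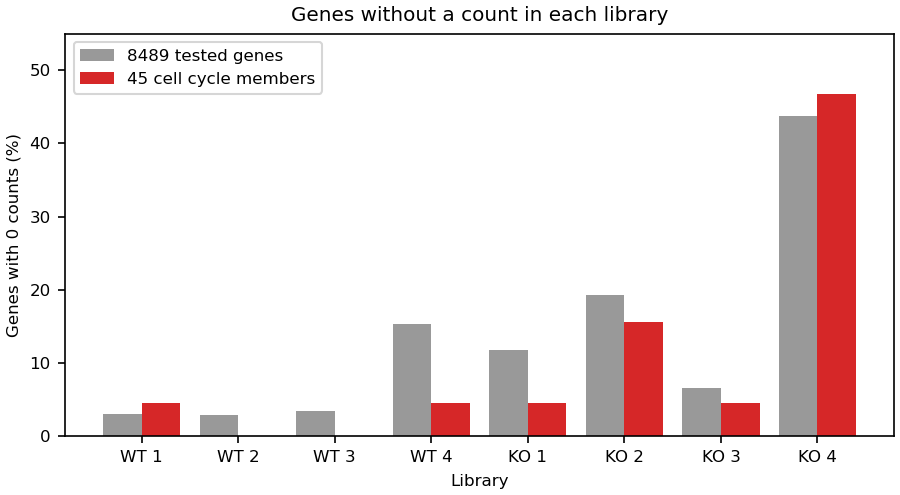
Percent of genes with 0 counts in each library, for the 8489 tested genes (grey) and the 45 members (red). Knockout replicate 4 stands out for both, at 43.7% and 46.7%, and knockout replicate 2 follows at 19.3% and 15.6%.

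Some members were higher in knockout replicate 4 than anywhere else. It held the highest value of all 8 libraries for 7 members, namely Cdc6, Bub1, Aurka, Aurkb, Tpx2, Cdc20 and Spc24. It also held the highest value of 18.3% of all tested genes, against 15.6% of the members. Partner genes differed there in some cases and went together in others. Aurkb was at 269 CPM while its partner Birc5 was at 0. The partners Spc24 and Spc25 were at 198 and 162 CPM, and Ccnb1 and Ccnb2 were both at 0.

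**Figure D4:**
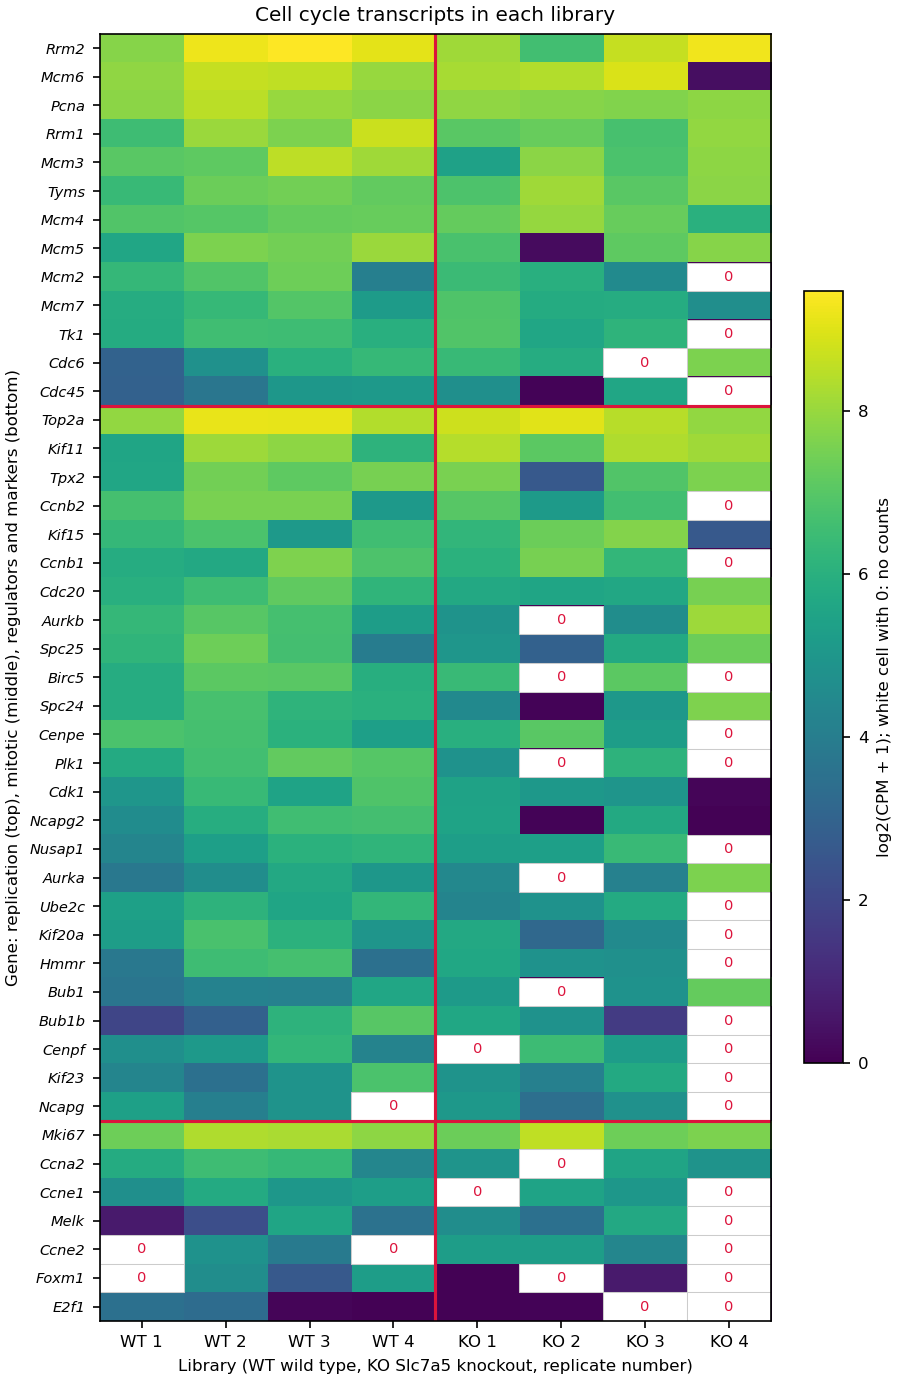
Log2(CPM + 1) of each of the 45 members (rows, grouped by role and ordered by mean level) in each library (columns, WT wild type and KO knockout). White cells marked 0 had no counts: 21 lie in knockout replicate 4, 7 in knockout replicate 2 and at most 2 in any other library.

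Among replication genes, the helicase subunits Mcm2 to Mcm7, which unwind DNA as a ring of all 6 proteins, were each detected widely. Their sum was 676, 1058, 1364 and 1006 CPM in wild type and 803, 933, 968 and 535 CPM in knockout. In each comparison that follows, the values of wild-type replicates 1 to 4 come first and those of knockout replicates 1 to 4 second. Mcm6 was at 240, 400, 379 and 255 CPM in wild type against 304, 337, 488 and 0.261 CPM in knockout (log2 fold change of -0.17, SE 1.15), where the last value is 5 counts. The other 3 knockout libraries lay inside or above the wild-type range, and without knockout replicate 4 the log2 fold change was 0.23.

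Mcm3 was at 132, 138, 373 and 281 CPM in wild type against 42, 226, 109 and 234 CPM in knockout (log2 fold change of -0.59, SE 0.55). Mcm5 was at 48.3, 195, 173 and 267 CPM and at 107, 0.222, 137 and 213 CPM (-0.58, SE 1.15). Knockout replicate 2 thus nearly lacked Mcm5, with 4 counts, where knockout replicate 4 nearly lacked Mcm6. Mcm4 was the steadiest subunit in wild type, at 120, 125, 149 and 152 CPM, and was at 149, 252, 154 and 63.9 CPM in knockout (0.18, SE 0.46). Mcm2 was at 16.2 to 168 CPM in wild type and 0 to 86.5 CPM in knockout, and Mcm7 at 35.6 to 123 and 25 to 115 CPM. Per kilobase of transcript, wild-type levels ran from 24.9 CPM for Mcm7 and 28.4 for Mcm2 through 38 for Mcm4 and 50.5 for Mcm5 to 73.1 for Mcm6 and 76.1 for Mcm3. Each step between neighbours in that order was smaller than the larger of their SDs in wild type.

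The enzymes that make DNA building blocks included Rrm2, the member with the highest mean CPM and the regulated subunit of ribonucleotide reductase. Rrm2 was at 217, 602, 711 and 539 CPM in wild type against 281, 97.5, 394 and 620 CPM in knockout (log2 fold change of -0.57, SE 0.50). The highest of the 8 values was a wild-type one and the lowest a knockout one, with the others mixed. The larger subunit Rrm1 was at 92.5, 264, 194 and 419 CPM and at 130, 152, 104 and 243 CPM (-0.62, SE 0.47). Tyms, which makes thymidylate, had a higher estimate in knockout, at 82.8, 163, 176 and 147 CPM and at 114, 278, 132 and 225 CPM (0.40, SE 0.43). Tk1, which salvages thymidine, was at 56.1 to 93.6 CPM in wild type against 118, 48, 70.9 and 0 CPM in knockout. It overlaps Afmid in the annotation.

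Pcna, the sliding clamp of DNA polymerases, was the most even replication member in knockout. It stood at 225, 364, 256 and 225 CPM in wild type against 238, 216, 205 and 232 CPM in knockout (log2 fold change of -0.26, SE 0.29). All 4 knockout values fell within or just below the wild-type range, and its standard error was the smallest of any member. The factors that load and activate the helicase were uneven among libraries. Cdc6 was at 6.98, 27, 64.4 and 81.5 CPM in wild type against 82.9, 57.5, 0 and 195 CPM in knockout. Cdc45 was at 6.7 to 32.9 CPM and at 25.4, 0.0556, 47.6 and 0 CPM.

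Among mitotic genes, Top2a was seen well in all 8 libraries. It was at 244, 575, 561 and 333 CPM in wild type against 427, 527, 351 and 243 CPM in knockout (log2 fold change of -0.15, SE 0.34). The knockout range, from 243 to 527 CPM, lay almost wholly within that of wild type. Mki67, counted here as a marker, is the gene of the Ki-67 protein that coats mitotic chromosomes and marks cycling cells, and was at 164, 325, 310 and 233 CPM and at 161, 383, 164 and 194 CPM (-0.19, SE 0.38). Wild-type replicate 1 was the lowest wild-type library for both genes. Of the condensin subunits, which compact chromosomes, Ncapg was at 0 to 40.4 CPM in wild type and 0 to 32.4 CPM in knockout. Ncapg2 was at 23.2, 58.5, 93.4 and 99 CPM in wild type against 44.2, 0.0556, 53.7 and 0.0522 CPM in knockout, where the low values are 1 count each.

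The kinase and cyclins that start mitosis were at or near 0 in knockout replicate 4. Ccnb1, cyclin B1, was at 57.4, 52.1, 200 and 113 CPM in wild type against 65, 185, 77.1 and 0 CPM in knockout (log2 fold change of -0.37, SE 1.34). Without knockout replicate 4 its log2 fold change was 0.03. Ccnb2 was at 101, 190, 190 and 33.8 CPM and at 128, 35.1, 96.8 and 0 CPM (-0.99, SE 1.35). Cdk1, the kinase that B cyclins activate, was at 30.2, 83.5, 44.7 and 115 CPM and at 43.2, 32.3, 30 and 0.104 CPM. Summed, these 3 genes gave 188 to 435 CPM in wild type, 204 to 252 CPM in knockout replicates 1 to 3 and 0.104 CPM in knockout replicate 4. That last library nevertheless held 243 CPM of Top2a and 194 CPM of Mki67.

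The spindle motors Kif11 and Kif15 were, with Bub1 and Aurka, the 4 mitotic members with higher estimates in knockout. Kif11 was at 46.1, 269, 235 and 69.7 CPM in wild type against 346, 134, 325 and 278 CPM in knockout (log2 fold change of 0.81, SE 0.56). In knockout, 3 of 4 libraries exceeded every wild-type library and replicate 2 did not. Kif15, a motor that backs up Kif11, was at 77.8, 109, 33.9 and 93.8 CPM and at 73.7, 162, 208 and 5.28 CPM (0.51, SE 0.89). The motors of cell separation had lower estimates, Kif20a at 60.5 ± 35 and 20.6 ± 22.9 CPM and Kif23 at 41.7 ± 45.8 and 24.3 ± 22.3 CPM (SD, n = 4 each). By library Kif23 was at 18.8, 10.2, 28.2 and 110 CPM and at 28.1, 16.3, 52.9 and 0 CPM. Its highest value was thus in wild-type replicate 4 and its lowest in knockout replicate 4. Kif11 and Kif15 overlap predicted genes and Kif20a overlaps Brd8 and Cdc23. Overlap was judged from whole gene spans and strand was not known for these counts. How far such pairs share reads was not tested.

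Of the spindle assembly genes, Tpx2, which activates Aurora A on microtubules, was at 47.9, 177, 137 and 186 CPM in wild type against 187, 5.28, 118 and 194 CPM in knockout (log2 fold change of -0.12, SE 0.82). The low value came from knockout replicate 2, and without it the log2 fold change was 0.26. Aurka, the Aurora A kinase, was at 12.8 to 52.3 CPM in wild type against 20.6, 0, 17 and 195 CPM in knockout. Plk1, the polo-like kinase of mitotic entry, was at 53.9, 96.7, 146 and 125 CPM in wild type against 27.7, 0, 68.8 and 0 CPM in knockout. Only knockout replicate 3 reached the wild-type range of Plk1, whose log2 fold change of -2.13 had an SE of 1.84. Nusap1, a microtubule bundling protein, was at 49.1 ± 24.6 and 41.1 ± 34.9 CPM, and Hmmr, a spindle-associated hyaluronan receptor, at 54 ± 49.3 and 25.6 ± 20.1 CPM.

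The chromosomal passenger complex corrects faulty spindle attachments. Its kinase Aurkb was at 77.9, 128, 101 and 37.9 CPM in wild type against 27.9, 0, 24.1 and 269 CPM in knockout (log2 fold change of -0.10, SE 1.46). The knockout libraries thus lay below the wild-type range in 3 cases and above it in 1, and without knockout replicate 4 the log2 fold change was -2.33. Birc5, survivin, was at 57.4, 135, 131 and 60.1 CPM and at 85.8, 0, 134 and 0 CPM (-0.80, SE 1.81). The log2 fold change of Birc5 was -1.74 without knockout replicate 3 and 0.20 without both knockout replicates 2 and 4.

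Kinetochore genes, whose proteins tie chromosomes to the spindle, varied widely among knockout libraries. Spc25 was at 72, 168, 99.7 and 14.8 CPM in wild type against 30.5, 6.67, 53.5 and 162 CPM in knockout (log2 fold change of -0.49, SE 1.04). The log2 fold change of Spc25 was -1.56 without knockout replicate 4 and -0.00 without wild-type replicate 2. Its partner in the Ndc80 complex, Spc24, was at 58, 105, 70.1 and 64 CPM and at 21.3, 0.0556, 31.9 and 198 CPM. Both partners were low in knockout replicate 2 and highest among knockout libraries in replicate 4. The checkpoint kinase Bub1 was at 11.7 to 47.9 CPM in wild type against 34.6, 0, 27.7 and 151 CPM in knockout, while its relative Bub1b was at 2.92 to 127 CPM and at 49.3, 27.3, 2.15 and 0 CPM. Cenpe and Cenpf, large proteins of the outer kinetochore, were at 78.8 ± 32.8 and 57.8 ± 55.3 CPM and at 38.2 ± 26.1 and 31.2 ± 41.8 CPM.

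Exit from mitosis depends on the anaphase-promoting complex, which Cdc20 activates. Cdc20 was at 61.4, 92.1, 143 and 71.7 CPM in wild type against 51.9, 46.5, 49.8 and 186 CPM in knockout (log2 fold change of -0.14, SE 0.73). Again 3 knockout libraries lay below the wild-type range and replicate 4 above it, and without replicate 4 the log2 fold change was -0.91. Ube2c, the ubiquitin-conjugating enzyme of that complex, was at 40.7 to 77 CPM in wild type against 18.6, 27.3, 54.4 and 0 CPM in knockout. Cdc20 overlaps Elovl1 in the annotation.

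The cyclins of S phase were missing from some knockout libraries, and Ccne2 also from wild-type replicates 1 and 4. Ccna2, cyclin A2, was at 55.4, 91.1, 80.2 and 19.4 CPM in wild type against 29.2, 0, 45.1 and 28.3 CPM in knockout (log2 fold change of -1.26, SE 1.61). Ccne1, cyclin E1, was at 25.4, 54.5, 31.4 and 38.7 CPM and at 0, 44.3, 31.5 and 0 CPM (-0.99, SE 2.1). For Ccne1 the 2 knockout libraries with counts lay inside the wild-type range, and without knockout replicate 2 the log2 fold change was -1.86. Ccne2 was at 0, 27.8, 13.6 and 0 CPM and at 37.7, 38, 19.3 and 0 CPM, and Melk, a kinase raised in dividing cells, at 0.611, 3.79, 46.8 and 10.9 CPM and at 23.8, 10.3, 51.9 and 0 CPM (0.47, SE 2.09).

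The transcription factors at the head of both programs had at most 15 counts in any knockout library and were uneven in wild type. Counts of E2f1 were 369, 258, 3 and 1 in wild type against 1, 1, 0 and 0 in knockout. Only wild-type replicates 1 and 2 thus held more than 3 counts, and the filter on low counts removed the gene. Counts of Foxm1 were 0, 661, 171 and 862 in wild type against 1, 0, 15 and 0 in knockout (log2 fold change of -6.66, SE 3.07, edgeR adjusted p = 0.9999, unadjusted p = 0.0515). Its wild-type range includes 0, so the groups overlap. Without knockout replicate 3, the one with 15 counts, its log2 fold change was -9.74, and without wild-type replicate 4 it was -5.87.

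These genes are given because DESeq2 called 1 member, E2f1, and were singled out after their values were seen. In DESeq2 the adjusted p was 0.0227 for E2f1 and 0.0718 for Foxm1, and 3.06% of the 10659 genes it tested were called lower. In edgeR without a filter, E2f1 had a log2 fold change of -7.43 (SE 4.08, adjusted p = 0.438). The fitted fold changes of genes with so few counts in knockout depend on the prior count. E2f1 overlaps Necab3 and Foxm1 overlaps Tex52. In the same knockout libraries replication members summed to 1781 to 2049 CPM and mitotic members to 1510 to 2009 CPM.

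Levels can be compared between genes only per length. Per kilobase of the longest GENCODE coding transcript, wild-type mean CPM was highest for Rrm2 (236) and Pcna (176), followed by Ccnb2 (84.1) and Top2a (82). In knockout the same scale gave 159 for Rrm2, 147 for Pcna and 74.1 for Top2a, while Ccnb2 stood at 42.4. The lowest tested members in wild type were Cenpf and Ccne2, both at 3.44 CPM per kilobase, and Foxm1 at 3.61.

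Further cell cycle genes outside the 45 were followed in lists of replication, mitosis, G1 entry and brakes, and 0 genes of any list passed in edgeR. Of 30 tested further replication genes 19 had lower and 11 higher estimates (median log2 fold change -0.29). Fen1, which trims Okazaki fragments, was at 227, 281, 282 and 342 CPM in wild type against 110, 193, 247 and 177 CPM in knockout (-0.64, SE 0.33). Lig1, which then seals them, had a higher estimate, at 147, 202, 177 and 48.3 CPM and at 227, 180, 178 and 291 CPM (0.61, SE 0.45). Prim1, the primase subunit that starts each fragment, was at 62.5, 69, 100 and 31.7 CPM and at 26.5, 19.8, 14.2 and 0 CPM (-2.12, SE 1.64), with no overlap between genotypes. The adjusted p of these genes was 0.9999 each.

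Of 30 tested further mitotic genes 20 had lower and 10 higher estimates (median -0.23). Kif4, a chromosome-bound motor, was at 15.6, 44.5, 52.3 and 92.7 CPM in wild type and had 0 counts in all 4 knockout libraries, at least 1349-fold lower against a floor of 3 pooled counts (edgeR adjusted p = 0.460, DESeq2 adjusted p = 2.18e-13). Hmgb2, a chromatin protein of dividing cells, was at 397, 593, 484 and 488 CPM and at 255, 258, 384 and 338 CPM (-0.67, SE 0.25, edgeR adjusted p = 0.924), with every knockout library below every wild-type library. Cdca8, a further passenger complex subunit, was at 218 ± 74 and 135 ± 40.7 CPM (-0.69, SE 0.40, edgeR adjusted p = 0.9999).

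Genes of G1 entry had 6 lower and 3 higher estimates in knockout of 9 tested (median -0.40). Ccnd2, a D-type cyclin through which growth signals act, was at 800, 821, 854 and 1082 CPM in wild type against 1132, 2183, 1651 and 1636 CPM in knockout (log2 fold change of 0.89, SE 0.22, edgeR adjusted p = 0.460). Every knockout library lay above every wild-type library. E2f2, an activating E2F factor, was the G1 gene that separated the other way, at 18.4, 26.3, 46.5 and 17.1 CPM in wild type against 12.3, 0, 9.84 and 0.0522 CPM in knockout (-2.29, SE 2.16, edgeR adjusted p = 0.9999), and was singled out after its values were seen. Ccnd3, another D-type cyclin, was at 148 ± 38.6 and 84.5 ± 25.3 CPM (-0.81, SE 0.49), and Cdk2, the partner of E and A cyclins, at 141 ± 77.2 and 56.4 ± 39 CPM (-1.32, SE 0.83), both with an edgeR adjusted p of 0.9999.

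Brakes of the cycle had 11 lower and 6 higher estimates of 17 tested (median -0.21). Cdkn1b, the inhibitor p27 of quiescent T cells, was at 252, 136, 154 and 152 CPM in wild type against 244, 420, 255 and 355 CPM in knockout (log2 fold change of 0.88, SE 0.33, edgeR adjusted p = 0.942). Of its knockout values 3 exceeded every wild-type library. Btg2, an antiproliferative factor, was at 1482 ± 353 and 981 ± 421 CPM (-0.60, SE 0.29), and Rbl2, the pocket protein of the DREAM complex, at 293 ± 57 and 194 ± 53.2 CPM (-0.60, SE 0.33), both with an edgeR adjusted p of 0.9999. Apart from E2f2, these 12 genes are those with the smallest p of each list, so their separation is no further support.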

How the data were processed

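The authors deposited raw counts of reads per gene symbol, 1 column per library, not normalized. The submitters' processing notes name HISAT2 2.1.0, featureCounts, edgeR 3.28.1 and build mm10; the sources used here give no annotation, strand setting or duplicate handling. Libraries were prepared with a low-input kit, per the labels' protocols, and such amplification can lose scarce transcripts.

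Genes were filtered with filterByExpr of edgeR 4.0.16 (minimum count 10, minimum total 15), scaled by TMM and compared in R 4.3.3 with robust quasi-likelihood F tests on genotype alone (glmQLFit, glmQLFTest), adjusted by Benjamini-Hochberg over 8489 genes (threshold 0.05). Fold changes are log2, knockout over wild type, each SE being that value divided by √F. CPM uses effective library sizes and is given as mean ± SD over 4 libraries. Sums over members carry no test. The pooled floor of 3 counts covers counting error only.

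Transcript length and GC content came from GENCODE vM21 (GRCm38) and were known for 8200 of the tested genes. Scripts were tested on simulated counts. Members with full statistics were the 8 replication, 10 mitotic and 4 other tested members with the highest mean CPM, and the 3 genes with the smallest p of each further list. Members and lists were chosen with earlier results of these data known. Of the members, 16 overlap another RefSeq gene. Among the marker genes, 1 is not reported here. Alternatives were no filter, a stricter filter, 3 scalings, DESeq2 1.42.0, limma 3.58.1 voom with and without quality weights, a replicate block, a GC offset, both together and each library left out. The removal of knockout replicates 2 and 4 together was chosen after seeing the data.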

Additional observations from a re-analysis of the deposited data

Results flagged for a closer look

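Among 4 libraries of a genotype, 1 stood far from the other 3 in 5 of 88 comparisons, where chance flags about 5%. The CPM of knockout replicate 4 was far above the other knockout libraries for Cdc20 (186 CPM) and Aurkb (269 CPM). Mki67 was far higher in knockout replicate 2 (383 CPM) than in the other knockout libraries. Cdkn1b was far higher in wild-type replicate 1 (252 CPM) than in the other wild-type libraries. The number of genes with a count was far lower in wild-type replicate 4 (7957) than in the other wild-type libraries.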

How the results depend on the processing

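The count of genes that passed was 0 in edgeR under every filter, scaling, block, GC offset and omitted library run (0 to 0 with 1 library left out), with 326 genes at an unadjusted p under 0.05 in the reported fit. It was 387 in DESeq2, 9 in limma voom and 4 in limma voom with quality weights. The count of members that passed was 0 (0 to 0 with 1 library left out) except for 1 in DESeq2, E2f1, whose log2 fold change there was -7.62. The summed replication ratio ran from -0.50 to -0.19 and the mitotic ratio from -0.45 to -0.14 over the libraries left out in turn. The ratio between both ran from -0.10 to 0.05, and each of these moves was within the spread between libraries. Without knockout replicates 2 and 4 together the replication ratio was -0.33 and the mitotic ratio -0.17. The ratio between both was then -0.17, beside a pooled SD of 0.18 between libraries. Members detected were 7 fewer in knockout on average, 9 fewer at a minimum of 10 counts and 1 fewer without knockout replicates 2 and 4. Of 707 fold changes of 37 named genes recomputed, 663 kept their sign and side of the threshold. Past the threshold were Kif4 (-12.52) and Slc7a5 (-9.71) in DESeq2, E2f1 as above and Kif4 in limma voom (-10.62). The median log2 fold change of all genes was 0.16 with the GC offset, -0.68 with the replicate block and -1.28 in limma voom, against -0.12 as reported. The log2 fold change turned its sign in these cases, and the cause was not tested. With the GC offset it was 0.08 for Rrm2, 0.07 for Pcna, 0.23 for Mcm3, 0.24 for Mcm5, 0.52 for Tpx2, 0.97 for Cdc20, 1.22 for Aurkb, 0.40 for Spc25, 0.15 for Mki67 and 0.03 for Fen1. With the replicate block it was -0.01 for Kif15. With the replicate block and GC offset together it was -0.16 for Kif15, 0.23 for Cdc20 and 0.01 for Mki67. With RLE size factors it was 0.01 for Aurkb. In DESeq2 it was 0.01 for Aurkb. In limma voom it was -0.38 for Melk. Without knockout replicates 2 and 4 it was 0.32 for Mcm6, -0.21 for Tyms, 0.16 for Tpx2 and 0.20 for Birc5. With each library left out in turn, the ranges of log2 fold changes that crossed 0 were -0.57 to 0.23 for Mcm6, -0.18 to 0.43 for Mcm4, -0.35 to 0.01 for Top2a, -0.41 to 0.26 for Tpx2, -1.18 to 0.14 for Ccnb1, -0.91 to 0.16 for Cdc20, -2.33 to 0.28 for Aurkb and -0.45 to 2.08 for Melk. Further ranges with a move of over 1.5 times in fold away from the reported value were -1.56 to -0.00 for Spc25, -1.74 to -0.40 for Birc5, -1.86 to -0.57 for Ccne1 and -9.74 to -5.87 for Foxm1. From end to end, ranges of other genes also spanned more than that, such as -1.02 to -0.29 for Rrm2. Deviations of same-numbered libraries had correlations of -0.0218, 0.018, 0.0208 and 0.053 across genes, beside -0.0613 to 0.0519 for libraries of unequal number. Such values cannot show whether equal numbers shared an animal or day. The replicate block left the counts of calls at 0 for genes and members. How far depth limits the precision was not tested. Mcm6 and Mcm5 each had a standard error of 1.15, with 5 counts of Mcm6 in knockout replicate 4 and 4 of Mcm5 in knockout replicate 2. The standard error was 0.281 for Mcm6 without knockout replicate 4 and 0.555 for Mcm5 without knockout replicate 2.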
